A study of Canis lupus familiaris with 30 samples.

Results

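Of 24 canine follicular thyroid carcinomas (FTC), 3 carried a somatic variant of *MEN1*, namely TC1164, TC1593 and TC815. These carriers were compared with the other 21 FTC, and all were picked by library name among 30 sequenced thyroid carcinomas. TC1088 and the medullary carcinomas were left out. All were primary tumors of the thyroid gland of dogs, the labels name no treatment, strain or age, and each tumor gave 1 library of total RNA with ribosomal RNA removed. The variant of a single carrier was missense and those of the others were frameshifts, and TC1593 also carried a *GNAS* fusion, so the carriers were not alike in their other lesions. TC1994, among the 21 others, had no exome data, so a variant there could be sought in its RNA reads alone. Of the carriers, 2 were follicular-compact and 1 follicular in pattern, 2 were well and 1 moderately differentiated, and 2 came from males and 1 from a female. The 21 others held 11 follicular-compact, 9 follicular and 1 compact tumor. Of these others, 8 were well and 13 moderately differentiated, and 9 came from males and 12 from females. The groups were thus not balanced for differentiation or sex.

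*MEN1* encodes menin, a nuclear scaffold protein and tumor suppressor. Menin holds the histone H3 lysine methyltransferases KMT2A and KMT2B on chromatin and is known for keeping cyclin-dependent kinase inhibitor genes and HOXA genes active. Inherited *MEN1* loss causes multiple endocrine neoplasia type 1, with tumors of the parathyroid, pancreatic islets and pituitary, and in such tumors the remaining copy of the gene is commonly lost.

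Reads assigned to genes totalled 12288945 to 45148677 in the 24 tumors, and 18835417 to 27027880 in the carriers. A level is log2(normalized count + 1), where counts were scaled by median-of-ratios size factors. TC538, one of the 21 others, had the smallest library and the smallest size factor (0.281). It held the lowest level of all 24 tumors for 4650 of the 18009 tested genes and the highest for 4386. It also sets the end of some ranges below in which it is not named. Over the tested genes, Spearman's correlation between tumors was 0.917 to 0.932 in the 3 pairs of carriers. It was 0.769 to 0.950 between carriers and others and 0.685 to 0.961 among the others, each lowest in a pair with TC538. The carriers thus did not form a set of their own in overall expression. *TG*, thyroglobulin, was at 19.16 in TC1164, 18.41 in TC1593 and 13.47 in TC815, within the 13.00 to 22.66 of the others. *CALCA*, calcitonin, was at 4.61, 3.78 and 5.39 in the same order, below the median of the others (6.91).

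*MEN1* (ENSCAFG00000014185) was the first gene compared. Its level was 8.68 in TC1164, 7.79 in TC1593 and 9.24 in TC815, and ran from 7.88 in TC538 over a median of 9.96 to 10.81 in TC812 in the others. TC1593 was the lowest of the 24 tumors, TC1164 the third and TC815 the fifth, with TC538 and TC1994 between them, so that the groups overlapped through these 2 tumors alone. Counts of reads were 316, 260 and 733 in the carriers and had a median of 1188 in the others.

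The mean *MEN1* level was 8.57 ± 0.73 (SD, n = 3) in the carriers and 9.91 ± 0.65 (SD, n = 21) in the others. The difference, carriers minus others, was -1.34 (two-sided exact permutation test over 2024 splits, p = 0.00692, where the smallest p possible is 0.000494). Without TC1593 the difference was -0.95 (exact permutation test, p = 0.0593), and without TC538 it was -1.44 (exact permutation test, p = 0.00113). In the test over all genes, edgeR's log2 fold change was -1.36 (standard error 0.42, Benjamini-Hochberg adjusted p = 0.443), and DESeq2 gave an adjusted p of 0.073, so *MEN1* was not called in either. Without TC538 the log2 fold change was -1.40 in both, with an adjusted p of 0.134 in edgeR and 0.00453 in DESeq2.

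**Figure D1:**
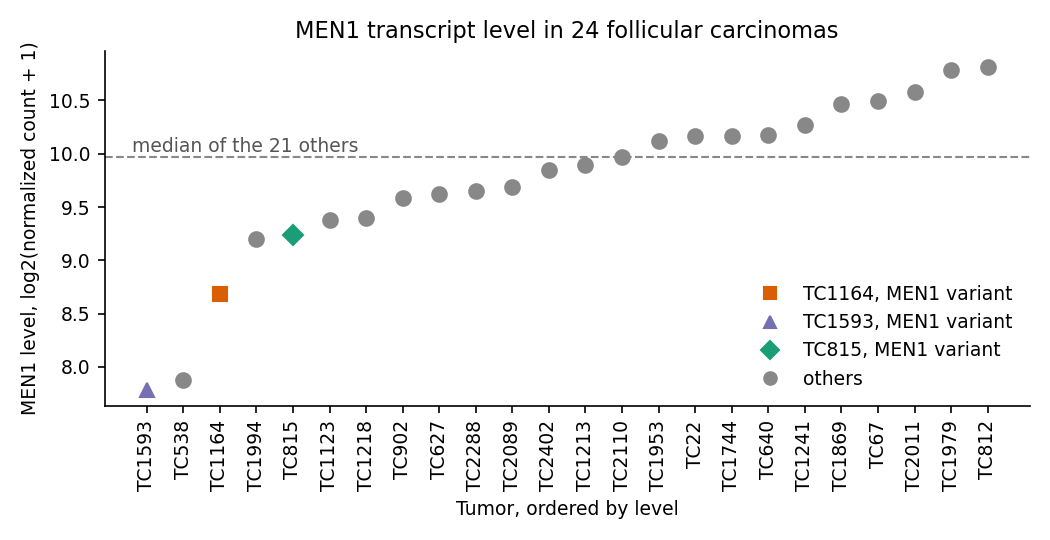
The *MEN1* level, log2 of the normalized count plus 1, is shown for each of the 24 FTC in order of level, with carriers in color and the median of the 21 others as a dashed line. All 3 carriers sit below that median of 9.96, and TC538 and TC1994 are the only others at or below the highest carrier (9.24).

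The genes around *MEN1* were compared next. Genes were placed in order by the UU_Cfam_GSD_1.0 assembly, in which 12974 tested genes were found by symbol. All 20 of the nearest tested genes, 10 on each side, had a log2 fold change below 0, against 58.3% of all 18009 tested genes. Their median was -0.92, or 1.89-fold lower in carriers, where the median of all tested genes was -0.12. By an unadjusted p under 0.05 in edgeR, 8 of the 20 were lower (40.0%) and 0 higher, where 4.8% of all genes were lower and 2.83% higher, but 0 of the 20 passed the adjusted test in edgeR or in DESeq2.

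The nearest neighbours on either side of *MEN1* overlapped between the groups. *CDC42BPG*, a kinase gene next to *MEN1*, was at 10.84 in TC1164, 11.01 in TC1593 and 10.41 in TC815, and from 9.40 over a median of 11.39 to 12.41 in the others. Its log2 fold change was -0.65. *MAP4K2*, the kinase gene on the other side, was at 8.78, 8.98 and 9.65 in the carriers, with 7.54, 9.69 and 10.89 as the lowest, median and highest of the others, a log2 fold change of -0.64.

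*TRMT112*, which encodes a cofactor of methyltransferases and lies 7 tested genes away, was at 9.86, 9.86 and 10.19, and from 9.89 in TC1123 to 12.14 in the others, so that 2 carriers lay below all others. *SF1*, a splicing factor gene, had the value nearest to 0 among the 24 tested genes of a list of this region written by hand, a log2 fold change of -0.41. *PYGM*, glycogen phosphorylase of muscle, had the lowest in that list, -1.83. All 24 were below 0, with a median of -1.07, and 14 had an unadjusted p under 0.05 in edgeR.

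The difference was not limited to the neighbourhood. With 25 genes on each side, 49 of 50 were below 0 (median -0.95), and with 50 on each side, 99 of 100 (median -0.98). Over the 446 other tested genes of the same chromosome, 425 (95.3%) were below 0, and the median was -0.89, or 1.85-fold lower. The 361 genes on one side of *MEN1* had a median of -0.88 and the 85 on the other side of -0.98. The 12527 genes on other chromosomes had a median of -0.12, with 58.7% below 0. This extension to the whole chromosome was chosen after the values near *MEN1* had been seen, and it is given as a description with no test.

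**Figure D2:**
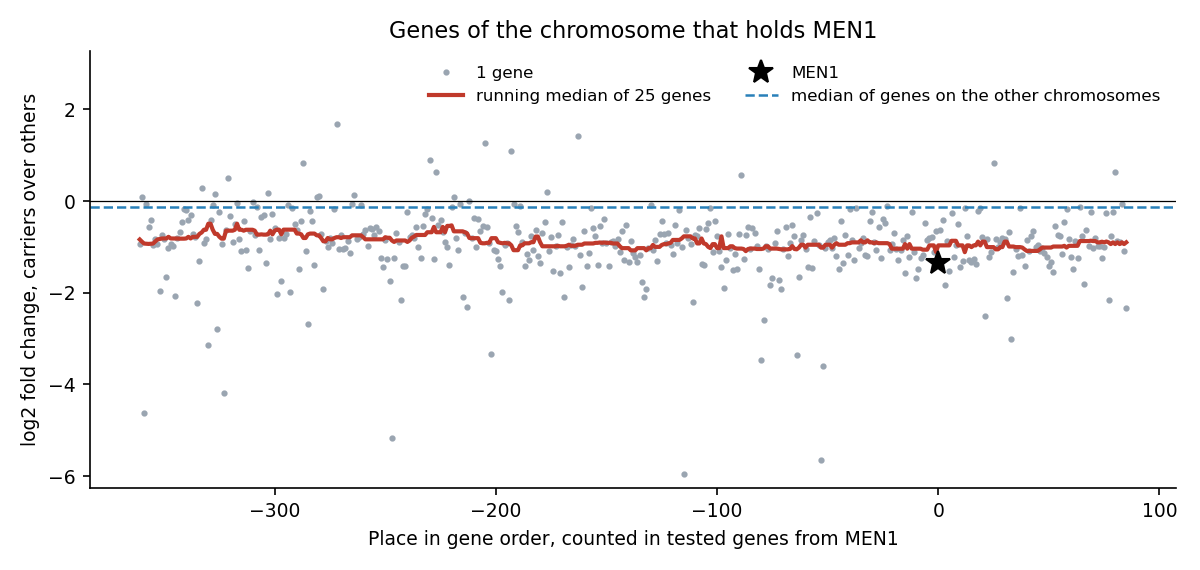
Each point is 1 tested gene of the chromosome that holds *MEN1*, placed by its rank in gene order from *MEN1* on the x axis, with edgeR's log2 fold change of carriers over others on the y axis. The running median of 25 genes stays below the dashed line, the -0.12 of genes on other chromosomes, along the whole chromosome, and *MEN1* (star) lies at -1.36.

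Cut into 18 consecutive blocks of up to 25 genes, the chromosome had a median log2 fold change between -1.05 and -0.56 in every block. Within single tumors, the median deviation of a block from the median of the 21 others ran from -1.01 to -0.11 in TC1164, from -1.11 to -0.38 in TC1593 and from -0.82 to -0.38 in TC815. No block was above 0 in any carrier. In TC538 the blocks ran from -2.15 to 1.69. Others than TC538 also fell below carriers in some blocks. In block 3 TC812 was at -0.63, below TC1164 (-0.11) and TC1593 (-0.43). In block 6 TC1869 was at -0.79, below TC1164 (-0.29) and TC1593 (-0.38). TC815 was at -0.63 and -0.79 in these blocks.

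Over the 446 genes together, the median deviation was -0.83 in TC1164, -0.89 in TC1593 and -0.64 in TC815. In the others it lay between -0.26 (TC1123) and 0.53 (TC2011), apart from TC538 at -0.95. The carriers thus lay below 20 of the 21 others and above TC538 on this measure. Over the 20 genes nearest to *MEN1*, the planned window, they stood less clear. There it was -0.88 in TC1164, -1.01 in TC1593 and -0.47 in TC815, with TC2089 at -0.53 and TC538 at -2.68. For 0 of these 20 genes did all carriers lie below all others. Over all other chromosomes together, the same measure was -0.01 in TC1164, -0.02 in TC1593, 0.04 in TC815 and -0.17 in TC538.

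By tumor, the chromosome of *MEN1* was the lowest of 39 in TC1164, the lowest in TC1593 and the second lowest in TC815. Other chromosomes also departed from 0 in the carriers. They ran from -0.59 to 0.65 in TC1164, from -0.62 to 0.61 in TC1593 and from -0.72 to 0.66 in TC815. In the same order, 7, 6 and 5 of them were at 0.5 or more from 0. Among the 21 others this number ran from 0, as in TC1123, to 16, with 10 in TC2011. Single chromosomes reached -1.32 in TC1979 and -1.20 in TC2011, further from 0 than that of *MEN1* in any carrier. In TC538 the other chromosomes ran from -2.07 to 1.38, with 16 of them at 0.5 or more from 0, so that its low value on the chromosome of *MEN1* came with departures as large elsewhere. In none of the 21 others was the chromosome of *MEN1* the lowest. In the fit across tumors its median was the lowest of the 39, followed by another chromosome at -0.59. DNA copy number was not used here, and its part in the result was not tested.

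**Figure D3:**
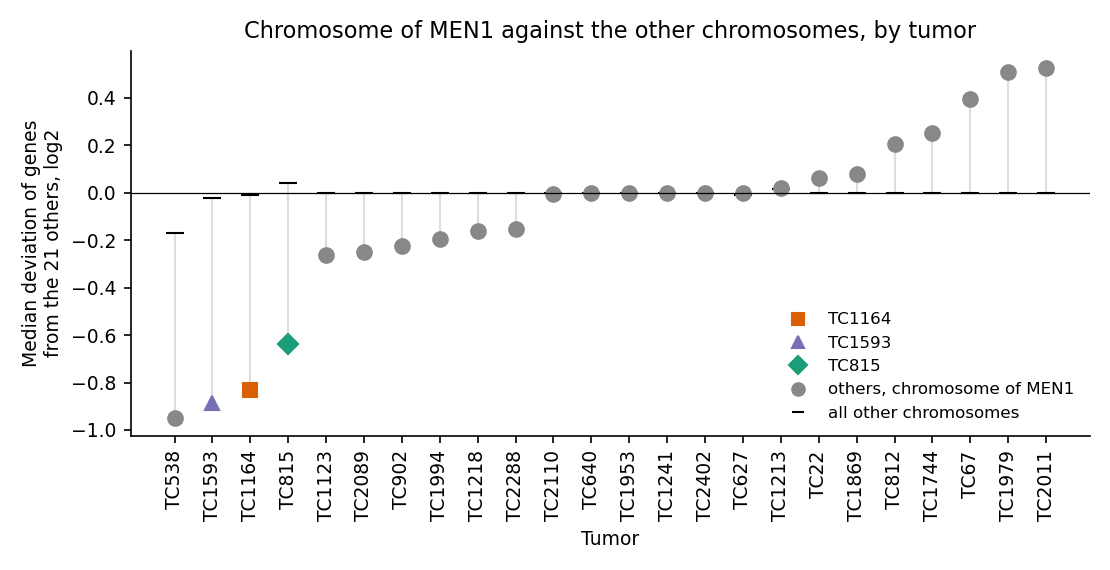
For each tumor, the symbol gives the median deviation (log2) of the 446 other tested genes of the chromosome of *MEN1* from the median of the 21 others, and the dash the same over all other chromosomes. The carriers lie at -0.64 to -0.89 with TC538 at -0.95, and the remaining others between -0.26 and 0.53.

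Gene by gene, all 3 carriers lay below the median of the others for 305 of the 446 genes (68.4%), where this held for 19.5% of all tested genes. All 3 carriers lay below all 21 others for 24 of the 446 (5.38%), where this held for 0.2% of all tested genes, 36 in number. Of the 32 such genes that could be placed in order, 24 (75.0%) were on the chromosome of *MEN1*, which held 3.45% of the placed genes. No gene of this chromosome had all carriers above the others, where 0.0944% of all tested genes had. Without TC538, the carriers lay below all 20 remaining others for 70 of the 446 genes (15.7%) and 0.566% of all tested genes.

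Among the 24 genes were *CAT*, catalase, *MTCH2*, which inserts proteins into the outer mitochondrial membrane, *KDM2A*, a demethylase of histone H3 lysine 36, *CTSD*, the lysosomal protease cathepsin D, and *DDB1*, an adaptor of a ubiquitin ligase. *ATG13* and *AMBRA1*, which both act in autophagy, were also among them. *CAT* was at 11.39 in TC1164, 10.79 in TC1593 and 11.31 in TC815, and from 11.99 over a median of 12.50 to 13.50 in the others. Every carrier thus lay below the lowest of the others, TC1213. *MTCH2* was at 9.26, 9.26 and 9.35 in the carriers and from 10.12 over 10.62 to 11.57 in the others. *KDM2A* was at 10.75, 10.74 and 10.52, and from 11.22 over 11.59 to 12.15 in the others.

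The SD among carriers was 0.33 for *CAT*, 0.06 for *MTCH2* and 0.13 for *KDM2A*, and among the others 0.38, 0.41 and 0.27. The log2 fold changes were -1.42 for *CAT* (standard error 0.30), -1.41 for *MTCH2* (0.29) and -0.99 for *KDM2A* (0.23). The Benjamini-Hochberg adjusted p in edgeR was 0.0681 for *CAT* and *MTCH2* and 0.127 for *KDM2A*, so none was called. In DESeq2 the adjusted p was 0.000693, 0.00095 and 0.00095. Without TC538, edgeR called *CAT* (adjusted p = 0.0488) and *MTCH2* (adjusted p = 0.0496).

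Over all genes, 8 of 18009 (0.0444%) were called higher in carriers at an adjusted p under 0.05 in edgeR's quasi-likelihood test, and 0 (0.0%) lower. At an unadjusted p under 0.05, edgeR had 509 higher and 864 lower. DESeq2 called 22 higher (0.122%) and 78 lower (0.433%). Without TC538 edgeR called 13 higher (0.0724%) and 3 lower (0.0167%), and DESeq2 32 higher (0.178%) and 232 lower (1.29%). With pattern, differentiation or sex as a term, edgeR called 1, 3 and 1 genes higher, and without TC1164 it called 5. Of the 64 genes called lower by DESeq2 that could be placed, 30 (46.9%) were on the chromosome of *MEN1*, which held 3.45% of the placed genes. No gene called higher was on it. Without TC538, DESeq2 called 101 of the 446 genes of this chromosome lower (22.6%), against 97 of the 12527 on other chromosomes (0.774%). It called 0 of the 446 higher (0.0%), against 25 of the 12527 (0.2%). At so small a share elsewhere, the 0 is not read as a result about the chromosome.

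The 8 called genes included 2 without a symbol. ENSCAFG00000029384 was at 5.73 in TC1164, 12.20 in TC1593 and 10.83 in TC815, and from 0.94 over 3.70 to 8.10 in the others, with edgeR's log2 fold change at 6.40 (standard error 0.83, adjusted p = 0.00067). ENSCAFG00000031333 had no read in TC1164, and TC815 alone held 98.3% of its normalized counts in the carriers. The carriers overlapped the others in all 8 genes.

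*SLC2A6*, a glucose transporter gene, was at 7.88 in TC1164, 6.19 in TC1593 and 7.44 in TC815, and from 3.79 over 4.69 to 6.20 in the others. Only 1 other tumor came above the lowest carrier. In edgeR its log2 fold change was 2.34 (standard error 0.40, adjusted p = 0.0135). *ELAPOR1*, whose protein lies in late endosomes and lysosomes, was at 7.69, 7.53 and 5.58, with 3.07, 4.79 and 5.84 as lowest, median and highest of the others, with edgeR's log2 fold change at 2.35 (standard error 0.40, adjusted p = 0.0135). Both were high in more than 1 carrier, but without TC1164 neither was called (edgeR adjusted p = 0.361 for *SLC2A6* and 0.327 for *ELAPOR1*). *ELAPOR1* was also lost without TC1593 (0.177) and *SLC2A6* without TC815 (0.115, edgeR adjusted p).

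The other called genes with a symbol were each highest in 1 carrier by a wide margin. *SH3RF3*, a ubiquitin ligase gene, was at 10.58 in TC1164, 7.32 in TC1593 and 6.59 in TC815, against 4.28 to 7.35 in the others. Without TC1164 its log2 fold change went from 2.94 to 0.72. *MATN4*, a matrilin of the extracellular matrix, was at 14.63 in TC815, 10.89 in TC1164 and 8.49 in TC1593, against 6.03 to 11.39. Without TC815 its log2 fold change went from 3.88 to 0.83.

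*MTRNR2L3*, whose reads may be shared with near copies in the nuclear and mitochondrial genomes, was at 10.52 in TC815, against 3.89 to 8.67 in the others, and its log2 fold change went from 3.29 to 0.95 without TC815. *TRIML1* was at 9.21 in TC1164, which held 92.7% of its normalized counts in the carriers, against 0.00 to 5.60 in the others. It did not reach the level limit for named genes.

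Among genes short of the adjusted test, *YOD1*, a deubiquitinase gene, was the only one of the 10 named higher genes in which all carriers lay above all others. Its level was 9.56, 8.73 and 9.40 in TC1164, TC1593 and TC815, and from 6.17 over 7.80 to 8.54 in the others (log2 fold change 1.47, edgeR adjusted p = 0.139, DESeq2 adjusted p = 0.0264). *NOTUM*, a secreted inhibitor of WNT, was at 8.52, 8.49 and 10.63, with 20 of the 21 others below the lowest carrier (log2 fold change 2.55, edgeR adjusted p = 0.139, DESeq2 adjusted p = 0.0539). *PEG10*, an imprinted gene derived from a retrotransposon, was at 10.22, 9.10 and 6.26, against a median of 3.65 and a highest level of 7.52 (log2 fold change 3.93, edgeR adjusted p = 0.0567, DESeq2 adjusted p = 0.0145). TC1164 and TC1593 were above all others for *PEG10* and also for *CCDC170* (log2 fold change 2.83, edgeR adjusted p = 0.0597, DESeq2 adjusted p = 0.0122), while TC815 lay within their range for both.

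*WFDC2*, a secreted protein of the whey acidic protein family that epithelia make, had the largest separation. Its reads numbered 7 in TC1164, 10 in TC1593 and 2 in TC815, and from 57 over a median of 1426 to 13641 in the others. Its level was 3.33, 3.24 and 1.40, and from 6.15 over 10.58 to 13.53, so that every carrier was below all 21 others. The log2 fold change was -8.56 (standard error 1.89, edgeR adjusted p = 0.0976), and DESeq2 gave an adjusted p of 1.4e-12.

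In the same gene order *WFDC2* lies 7 tested genes from *MATN4*, and *RBPJL*, a DNA-binding relative of RBPJ, lies between them, next to *MATN4*. *RBPJL* was at 8.11 in TC1164, 6.74 in TC1593 and 9.57 in TC815, and from 2.20 over 5.42 to 6.92 in the others (log2 fold change 3.06, edgeR adjusted p = 0.0681, DESeq2 adjusted p = 0.0213). Of the 5 tested genes that lie between *RBPJL* and *WFDC2*, none had an unadjusted p under 0.05 in edgeR, with log2 fold changes from -0.04 for *SYS1* to 0.94 for *SDC4*. This stretch was looked at after its values had been seen.

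*HBEGF*, a ligand of the epidermal growth factor receptor, was at 6.56, 6.45 and 6.47 in the carriers and from 7.17 over 8.00 to 8.70 in the others, with a log2 fold change of -1.47. *DHRS3*, which reduces retinal to retinol, was at 7.41, 7.24 and 7.90, and from 8.26 over 9.40 to 10.81 in the others, with a log2 fold change of -2.17. Neither overlapped the others, and neither is on the chromosome of *MEN1*. The edgeR adjusted p was 0.135 for *HBEGF* and 0.175 for *DHRS3*, and the DESeq2 adjusted p was 0.00104 and 0.00233. *ARHGAP1*, *STX5* and *OSBP*, the remaining named lower genes without overlap, are on the chromosome of *MEN1* and had log2 fold changes of -1.44, -1.20 and -1.08. *THSD1*, the last of the named lower genes, had 1 of the 21 others below the carriers and a log2 fold change of -1.73.

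**Figure D4:**
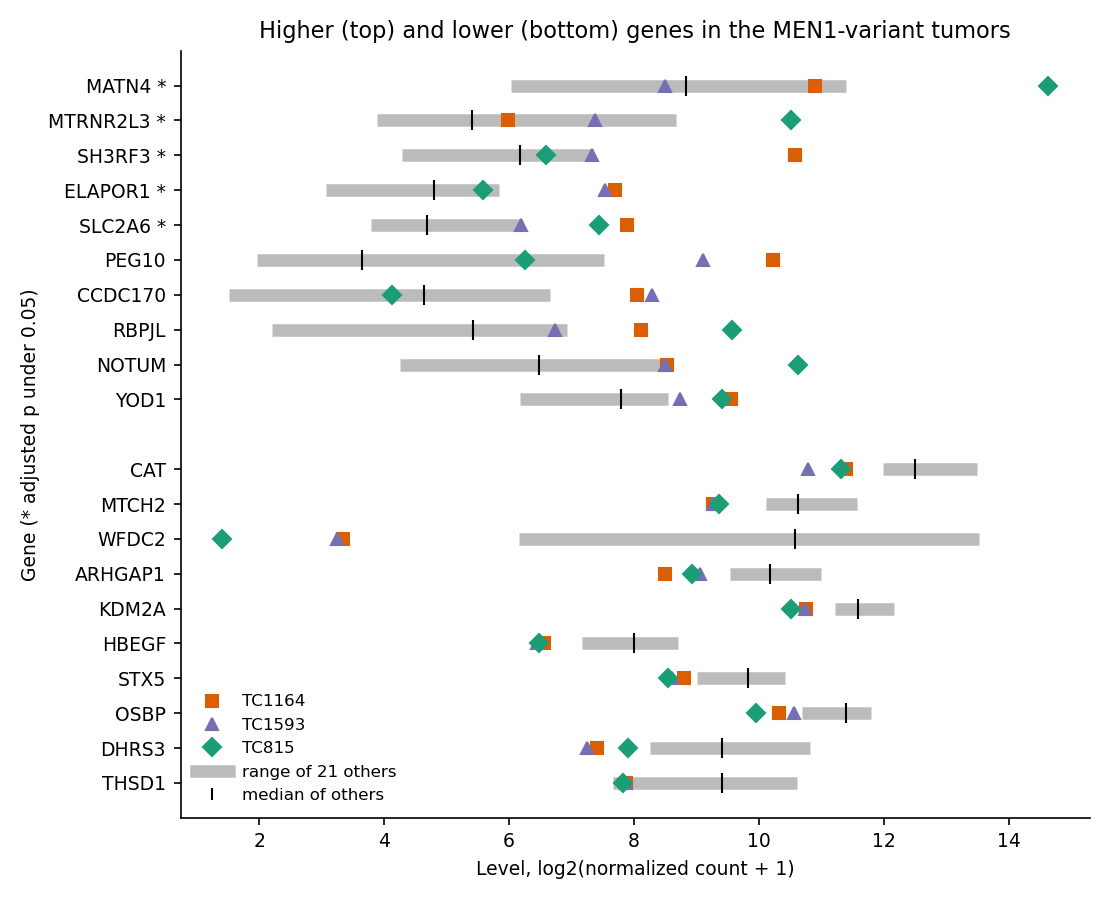
Levels (log2 of the normalized count plus 1) of the 10 named higher and 10 named lower genes, with the range of the 21 others as a grey bar, their median as a tick and the 3 carriers as symbols. Carriers lie clear of the bar for 9 of the 10 lower genes, and for *YOD1* among the higher genes, while the called genes (asterisk) have at least 1 carrier within the bar. Over all tested genes, all carriers were below the others in 0.2% and above them in 0.0944%. The named genes were picked by this same comparison, so their separation is no separate result.

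Genes that work with menin, and genes of other processes and cell types, were then compared as lists. None of the 158 tested genes of 14 lists, *MEN1* aside, was called in either direction by edgeR or DESeq2. By an unadjusted p under 0.05 in edgeR, 4 were higher (2.53%) and 7 lower (4.43%), near the 2.83% and 4.8% of all genes. The smallest adjusted p was 0.525, of *CD8A*.

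The 15 menin partners tested had a median log2 fold change of -0.02, which was 0.01 without TC815. *KMT2A* and *KMT2B*, the methyltransferases that menin binds, were at 0.14 and 0.09 on the log2 fold change scale. *PSIP1*, which joins the complex to chromatin, was at 0.19. *RBBP5*, a core subunit, was at 10.81, 11.01 and 10.77 against 9.61 to 10.93, a log2 fold change of 0.55. *JUND*, a transcription factor that menin binds, was at 9.26, 8.90 and 8.78 against a median of 9.98 in the others, with a log2 fold change of -1.40 (edgeR adjusted p = 0.642).

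The list of cyclin-dependent kinase inhibitors and cyclin D partners had 10 tested genes, all below 0 and with a median of -0.73. It also holds *CDK4*, the lowest at -1.15, and *RB1*, the nearest to 0 at -0.06, so its median is not that of the inhibitors alone. None of the 10 had an unadjusted p under 0.05 in edgeR. *CDKN1B*, which encodes p27, was at 9.29, 9.84 and 10.22, against 7.48, 10.19 and 12.00 as lowest, median and highest of the others. *CDKN2C*, which encodes p18, was at 9.17, 6.30 and 8.01, against 5.14, 8.51 and 10.41. The carriers thus lay within the range of the others for both, with log2 fold changes of -0.55 and -0.30 (edgeR adjusted p = 0.799 and 0.944). *CCND1* is itself a gene of this list, at -0.82.

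Of the 16 genes of the HOXA cluster and its MEIS and PBX partners, 10 passed the count filter, 9 of them below 0, with a median of -2.46. The levels were low in most tumors. *HOXA3* was at 1.85, 4.47 and 2.10 in the carriers, with a median of 3.54 and a highest level of 10.07 in the others, and *HOXA5* was at 0.00, 3.68 and 0.86 with a median of 1.79 and a highest level of 8.37. TC1593 was above the median of the others for both genes. DESeq2 gave a list median of -0.72, and with differentiation as a term edgeR gave -0.49.

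Proliferation genes, 27 in number, had a median of -0.37, or -0.15 without TC1593, with *MKI67* at -0.38 and *CCNE1*, cyclin E, highest at 1.02. The summed level of this list was 13.09 to 13.38 in carriers and 12.70 to 14.12 in the others. Polycomb genes, which act against the menin complex at many promoters, had a median of -0.14 over 15 genes, or -0.28 without TC1593, with *EZH2* at -0.26. The MAPK activity score genes had a median of 0.14 over 10, which was -0.08 without TC815. They ran from *PHLDA1* at -0.95 to *ETV4* at 1.41, and *ETV4* was at 11.65 in TC815, above all others.

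Thyroid differentiation genes had a median of -0.34 over 19, which was -1.49 without TC1164. *SLC5A5*, the iodide transporter, was at 8.29, 11.46 and 9.33 against a median of 12.90 (log2 fold change -4.21, edgeR adjusted p = 0.65). *PAX8*, a thyroid transcription factor, was at 0.19 on the log2 fold change scale. TC815 had the lowest summed level of this list among all 24 tumors, 16.03, where TC1164 had 19.71 and TC1593 18.72.

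Among markers of other cell types, no fibroblast or endothelial marker had an unadjusted p under 0.05 in edgeR. All 9 fibroblast markers were below 0 with a median of -1.36, and their summed level was 13.28 to 13.70 in carriers and 12.48 to 16.57 in the others (median 14.52). All 9 endothelial markers were below 0 with a median of -1.04, and their summed level was 13.36 to 13.56 against 12.36 to 15.13 (median 14.00). Their part in the lower genes was not tested, and fewer cells of a type and less RNA per cell cannot be told apart in bulk tissue. *COL1A1*, collagen of fibroblasts, was at 10.65, 11.16 and 11.30 against a median of 12.36.

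T, B and myeloid cell markers had a median of 0.17 over 13 genes (0.34 without TC1164 and -0.46 without TC815), from *CD4* at -2.05 to *CD8A* at 1.26. Skeletal muscle markers had a median of -1.51 over 7 (-2.57 without TC1593), with summed levels of 16.18 in TC1164, 13.40 in TC1593 and 10.01 in TC815 against 8.40 to 17.21. *TTN*, titin, was at 16.16, 13.29 and 9.71 in the same order. C-cell and neuroendocrine markers had a median of -0.05 over 9, which was 0.27 without TC1164, -0.48 without TC1593 and -1.45 without TC815, and *CALCB* had no read in any carrier. Parathyroid markers had 3 tested genes with a median of -0.99, which DESeq2 put at 0.25, and *PTH* was at 2.92 to 3.93 in the carriers against a highest level of 14.80. Fat cell markers had a median of -1.36 over 3 genes.

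**Figure D5:**
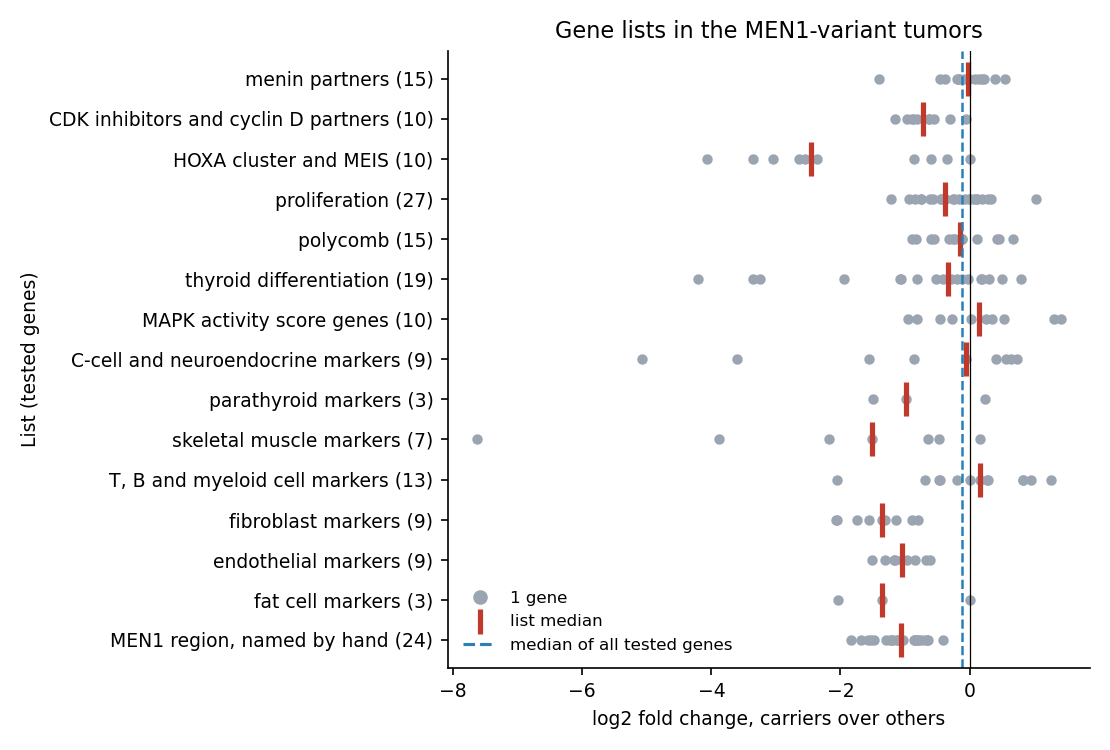
Each grey point is the log2 fold change, carriers over others, of 1 tested gene of a list, and the red bar the list's median, with the median of all tested genes (-0.12) as a dashed line. Fibroblast, endothelial and cyclin D lists and the genes around *MEN1* lie wholly below 0, while menin partners and polycomb genes lie on either side of it.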

How the data were processed

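Raw counts per Ensembl gene and tumor were deposited by the authors, who aligned reads to CanFam3.1 using STAR. The strand setting of the counting is not given in the sources used here, so values of genes overlapping on opposite strands are uncertain. Totals per tumor, 12288945 to 45148677, set the precision of low counts, and reads were not counted by molecular identifiers. Groups followed the tumor names, and the members and gene lists were chosen with earlier results of these data known. Pattern, differentiation and sex came from the study's supplement.

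Genes that reached 10 counts in 5 or more of the 24 FTC were tested with edgeR 4.0.16 (R 4.3.3, TMM, quasi-likelihood, Benjamini-Hochberg adjusted p under 0.05), with DESeq2 1.42.0 as an alternative (adjusted p NA for 174 genes, kept as NA). Standard errors given with edgeR's log2 fold changes were derived as the absolute log2 fold change over the square root of the quasi-likelihood F statistic. The *MEN1* level was compared by an exact permutation test, two-sided. Both fits were also run on simulated counts, whose outcome is not given here and is not used to weigh the results. With 1 library a tumor, the spread between tumors holds biological and technical parts together. Labels name no batch.

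Named genes were *MEN1*, list members and, in each direction, 10 genes that carry a symbol and have a median normalized count of 100 or more in the group where they are higher. Called genes without overlap came first by fold change, then called genes with overlap, then uncalled genes by p. Further genes were named after seeing their values, including *TRIML1*, those without a symbol, those on the chromosome of *MEN1* and those near *WFDC2*. Gene order came from the UU_Cfam_GSD_1.0 assembly, which is not the build of the counts, so no coordinates are given. Some genes are not reported here. Alternatives were other scalings and filters, robust dispersion, pattern, differentiation or sex as a term, wider windows, a pseudocount of 8, and leaving out each carrier, TC1994 or TC538. DESeq2 without TC538, the windows without TC538 or TC1994 and the whole chromosome were added after seeing the data.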

Additional observations from a re-analysis of the deposited data

How the results depend on the processing

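The lower *MEN1* level in carriers kept its direction under every alternative run, from -1.68 without TC815 to -0.95 without TC1593, and lost its call only without TC1593 and under the adjusted tests over all genes (-1.36 in edgeR, -1.35 in DESeq2). The count of called genes moved with the tool and filter. DESeq2 called 22 higher and 78 lower (32 and 232 without TC538), edgeR without a count filter 95 and 4, and with 10 counts in at least 3 tumors 21 and 3. Genes called higher in edgeR numbered 1 with pattern, 3 with differentiation and 1 with sex as a term, and 5 without TC1164, 9 without TC1593, 7 without TC815, 8 without TC1994 and 13 without TC538. Genes called lower numbered 0 to 3 when a tumor was left out, the 3 without TC538. The median of the 20 neighbours ranged from -1.26 without TC815 to -0.86 without TC1593 when a tumor was left out, and was -0.85 in DESeq2. The causes of these shifts were not tested. Of 280 values of the 20 named genes under alternatives, 47 newly passed the adjusted test, 20 no longer passed and 0 changed sign. Of 210 list medians, 14 moved by more than the SD between carriers. No paired analysis was possible because replicate numbers only name tumors and no tumor of one group is tied to one of the other.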

Other observations

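The 3 carriers each held the lowest level of all 24 tumors for 34 to 42 of the 447 tested genes of the chromosome of *MEN1*, *MEN1* included. Among the others this number was 0 to 21, apart from TC538 with 168. Over all tested genes the carriers held the lowest level for 380 to 696 genes, within the range of the others.

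Relative to its own chromosome, *MEN1* deviated by -0.45 in TC1164, -1.29 in TC1593 and -0.09 in TC815, and by -1.13 in TC538 to 0.64 in the others. On this measure TC1593 lay below the range of the others, and TC1164 and TC815 within it.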
